A study of Mus musculus with 23 samples.

Results

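The anterior visceral endoderm genes Cer1, Dkk1, Hhex, Lhx1, Sfrp1 and Sfrp5 were taken by symbol, 6 of the 23725 genes in the deposited count table. RNA was measured in mouse embryos at E6.25, just before gastrulation, from epiblast (E) and, separately, from extra-embryonic tissue (ExE). Pools were of wild-type (wt) embryos, of Tet1gt/wt embryos (het, with 1 copy of a gene trap in Tet1) or of Tet1gt/gt embryos (hom, with the trap on both copies). Tet1 encodes an enzyme that oxidises 5-methylcytosine; the sources used here give neither the trap's position nor the strain. Each library came from 1 pool of lysates of at least 6 genotyped embryos of a few litters, so it averages over embryos. Each group had 4 pools except ExE hom, which had 3. Libraries are named by tissue, genotype and the pool number of the labels, as in E wt 1; for most pools, E and ExE libraries of the same number came from the same litters.

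The visceral endoderm is the epithelium that wraps the epiblast. Its anterior part, the anterior visceral endoderm, arises at the distal tip of the embryo and moves to the future front, where it secretes inhibitors of Nodal and WNT signals and so keeps the formation of the primitive streak to the back. Cer1 binds and blocks Nodal and BMP ligands, Dkk1 blocks the WNT co-receptors LRP5 and LRP6, and Sfrp1 and Sfrp5 are secreted frizzled-related proteins that bind WNT ligands. Hhex and Lhx1 encode homeodomain transcription factors needed for head formation.

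In the mouse genome GRCm38 (gene models of GENCODE M21), Cer1 lies on the minus strand of chromosome 4 (82881751 to 82885148) and Lhx1 on the minus strand of chromosome 11 (84518284 to 84525535). Sfrp1 lies on the plus strand of chromosome 8 (23411502 to 23449632). The other 3 lie on chromosome 19: Dkk1 on the minus strand (30545863 to 30549665), Hhex on the plus strand (37434810 to 37440731) and Sfrp5 on the minus strand (42197971 to 42202252). The RefSeq table (GRCm38.p6) held the promoters of 5 of the 6 genes, all but Sfrp1. Those of Cer1 (chr4:82885152-82885401, minus strand), Dkk1 (chr19:30549497-30549746, minus strand) and Sfrp5 (chr19:42202253-42202502, minus strand) are shown because Cer1 and Dkk1 had the most alike levels across the epiblast libraries, and Sfrp5 was the one other member with a match. Each is the 250 bases before the start of the RefSeq gene, 5′ to 3′ on the gene's strand. The GENCODE model of Dkk1 starts farther upstream, so 169 of the 250 bases of its window, with 4 of its 5 matches, lie inside that model. Capitals mark matches on either strand to any of 5 short motifs.
Cer1: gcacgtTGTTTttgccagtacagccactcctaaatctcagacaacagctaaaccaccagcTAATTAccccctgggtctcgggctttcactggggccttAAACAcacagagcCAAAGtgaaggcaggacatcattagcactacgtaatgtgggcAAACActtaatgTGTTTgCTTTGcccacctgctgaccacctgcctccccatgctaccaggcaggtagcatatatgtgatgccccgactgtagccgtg
Dkk1: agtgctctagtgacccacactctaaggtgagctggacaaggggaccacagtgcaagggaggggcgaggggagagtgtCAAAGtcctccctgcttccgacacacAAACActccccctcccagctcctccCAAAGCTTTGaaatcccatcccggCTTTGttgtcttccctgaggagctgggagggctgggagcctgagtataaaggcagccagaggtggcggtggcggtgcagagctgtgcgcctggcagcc
Sfrp5: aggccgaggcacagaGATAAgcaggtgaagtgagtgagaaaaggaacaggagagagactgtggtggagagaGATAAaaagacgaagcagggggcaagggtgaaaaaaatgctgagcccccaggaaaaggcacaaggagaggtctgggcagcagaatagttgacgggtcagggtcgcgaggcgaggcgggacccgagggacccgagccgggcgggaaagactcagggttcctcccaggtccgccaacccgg

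The motifs searched were GATAA (GATA factors), TGTTT (forkhead factors), TAATCC (OTX and Goosecoid), TAATTA (LIM homeodomain factors such as Lhx1) and CTTTG (LEF and TCF, the nuclear effectors of WNT), all core letters of binding sites; none of them contains another. Cer1 held TGTTT 4 times, CTTTG 2 times and TAATTA 1 time. Dkk1 held CTTTG 4 times and TGTTT 1 time, and Sfrp5 held GATAA 2 times. Among 32851 promoters of the same length, 22.6% held GATAA, 46.4% TGTTT, 4.84% TAATTA and 48.6% CTTTG, and 2054 held TAATCC. The windows of Hhex and Lhx1 held none of the 5, which says only that these letters are not in those windows.

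The libraries held 4912215 to 9494814 counted reads and 13028 to 14360 genes with a count. Levels are CPM, reads of a gene scaled to a common library size with TMM factors, and the limit that a count of 0 allows (3 reads) was 0.312 to 0.681 CPM, which covers counting error only. Tet1, the check of the genotype labels, averaged 173 ± 31.6 CPM in E wt, 124 ± 39.0 in E het and 81.0 ± 24.8 in E hom (SD, n = 4 each), and 96.1 ± 13.8, 48.1 ± 7.51 and 27.8 ± 8.74 in ExE wt, het and hom (SD, n = 4, 4 and 3). Every hom pool was below every wt pool of its tissue. E het (66.0 to 148 CPM) overlapped both E wt (127 to 197) and E hom (54.9 to 112), so Tet1 does not check the E het labels. In ExE the 3 genotypes did not overlap. The 3 libraries E het 4, E hom 3 and ExE hom 3 stood apart, with a mean log2 CPM of 84 ribosomal protein genes of 9.10 to 9.51 against 7.71 to 8.39 in the other 20. Those 3 libraries enter the results below, and values without them are given for some of the results.

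Sfrp1 was the most abundant member and was higher in the epiblast than in extra-embryonic tissue. It had 51.8, 61.4, 50.3 and 60.4 CPM in E wt 1, 2, 4 and 5. It had 54.7, 41.5, 26.5 and 53.2 CPM in E het 2, 3, 4 and 5, and 73.2, 93.5, 40.8 and 74.5 CPM in E hom 1, 2, 3 and 4. The lowest E het and the lowest E hom value came from the 2 epiblast libraries that stood apart, and the 3 genotypes overlapped. Without E hom 3, E hom ranged from 73.2 to 93.5 CPM, above the 50.3 to 61.4 CPM of E wt. The share of all genes separated in that way was not computed, so the separation is not read as a difference between genotypes. In extra-embryonic tissue Sfrp1 had 18.8, 0.775, 16.8 and 8.37 CPM in ExE wt 1, 2, 4 and 5. It had 3.95, 2.01, 1.90 and 5.12 CPM in ExE het 1, 2, 3 and 5, and 0.945, 15.2 and 11.4 CPM in ExE hom 1, 3 and 4. The lowest epiblast library was above the highest extra-embryonic one, so the tissues did not overlap in any genotype; the same held, lower in ExE, for 13.8% of all genes in wt, 15.3% in het and 12.1% in hom. By group mean the order was E hom (70.5 ± 21.8), E wt (56.0 ± 5.73), E het (44.0 ± 13.1), ExE wt (11.2 ± 8.29), ExE hom (9.20 ± 7.39) and ExE het (3.25 ± 1.57 CPM; SD, n = 4, and 3 in ExE hom). Of the 5 steps in this order, neighbours were separated at 1, the step between the tissues.

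**Figure D1:**
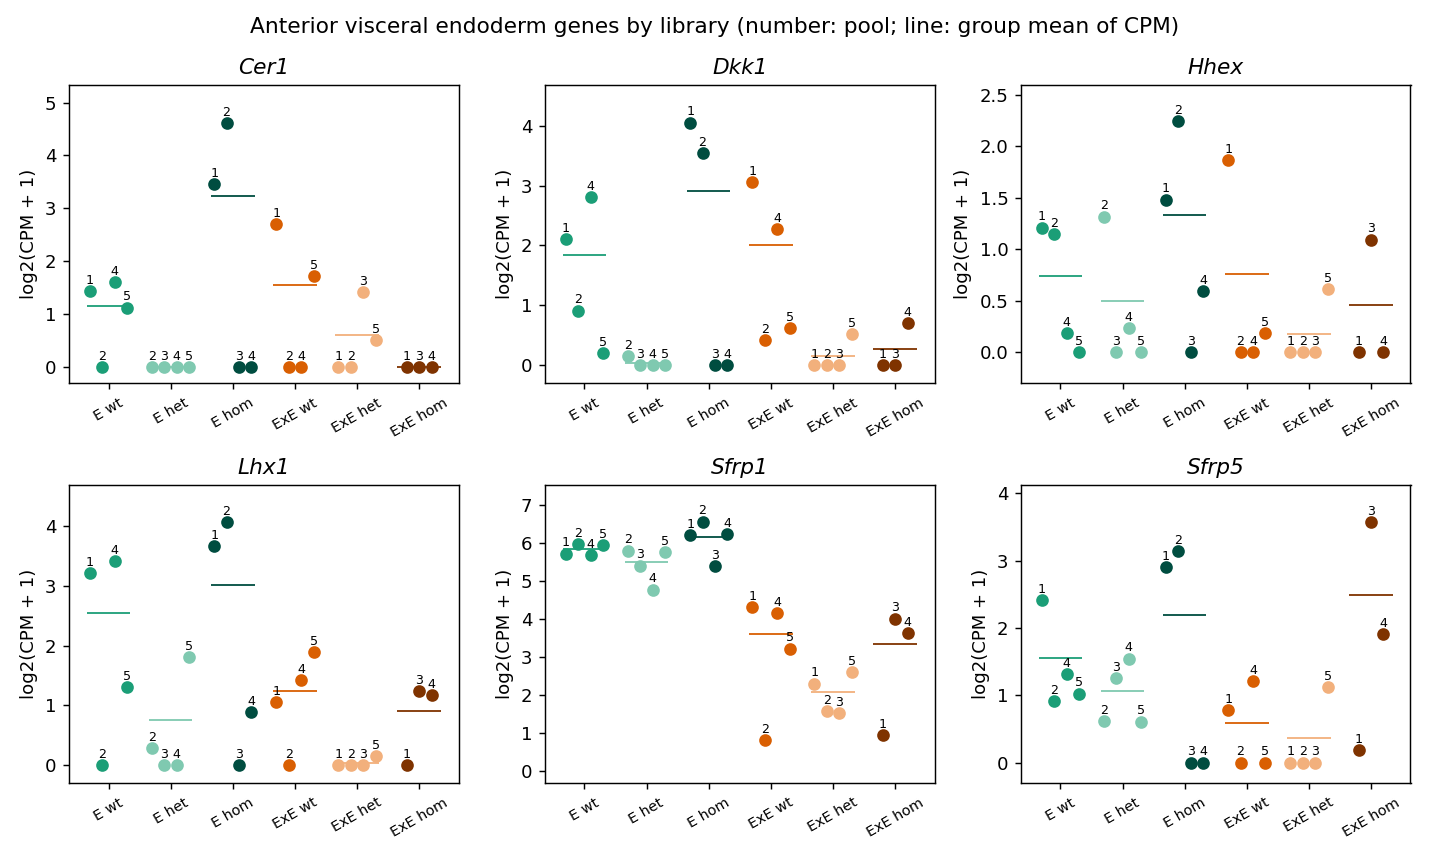
Each panel plots 1 of the 6 genes as log2(CPM + 1) (y axis) in the 6 groups (x axis), with 1 point per library labelled by pool number and a line at the group mean of CPM. Sfrp1 separates the tissues (26.5 to 93.5 CPM in E, 0.775 to 18.8 in ExE), while each of the other 5 genes has libraries at 0.

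Sfrp1 fell from epiblast to extra-embryonic tissue in all 3 genotypes. Differences below are log2 fold changes ± SE from edgeR's quasi-likelihood test with Benjamini-Hochberg adjustment over all genes tested, called at an adjusted p under 0.05. The difference was -2.32 ± 0.63 in wt (adjusted p = 0.0131), -3.75 ± 0.68 in het (adjusted p = 0.000300) and -2.96 ± 0.73 in hom (adjusted p = 0.00808). It was the 1 member of 6 called in each genotype; of all 13595 genes, 7.99% were called lower in ExE in wt, 14.9% in het and 7.66% in hom, so a call of this kind was common. The pool number as a block pairs tissues of the same number, which came from the same litters for most pools. With that block the difference was -2.69 (adjusted p = 0.0149), -4.13 (adjusted p = 0.00284) and -3.11 (adjusted p = 0.0218) in the same order. In the 10 pairs of same-numbered libraries Sfrp1 was higher in E in 10, by 2.69-fold to 79.3-fold with a median of 8.80-fold. Genotype did not change the size of this step in a detectable way: the hom effect in ExE minus that in E was not called for any member (adjusted p = 1.00 for all 6 by edgeR), nor was the het effect (adjusted p = 1.00).

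The level of Sfrp1 in the extra-embryonic libraries moved with epiblast transcripts in them. Over 8 epiblast markers such as Pou5f1, Fgf5, Nanog and Otx2, the mean log2 CPM was 6.95, 4.47, 6.64 and 5.90 in ExE wt 1, 2, 4 and 5. It was 5.60, 5.25, 4.30 and 5.59 in ExE het 1, 2, 3 and 5, and 4.91, 6.38 and 6.70 in ExE hom 1, 3 and 4, against 7.71 to 8.05 in the epiblast libraries. ExE wt 1, wt 4, hom 3 and hom 4 had the 4 highest marker means and the 4 highest Sfrp1 values. All 8 markers had counts in every library, and their summed level was 1250 to 1824 CPM in ExE wt, 1024 to 1417 in ExE het and 781 to 2517 in ExE hom, against 2372 to 4039 over the epiblast libraries. Much of the ExE wt sum was Pou3f1 and Utf1, at similar means in both tissues. Pou3f1 averaged 641 CPM in ExE wt and 578 in E wt, and Utf1 549 and 564. Pou5f1 averaged 152 CPM in ExE wt and 737 in E wt. Of the 8 markers, 6 had a lower fitted level in ExE wt than in E wt and 2 a higher one. Called lower were 5, as were 7.99% of all genes. The part of the 8 markers in the Sfrp1 level of extra-embryonic libraries was not tested. The 10 markers of extra-embryonic ectoderm and ectoplacental cone summed to 1850 to 3366 CPM in ExE and 116 to 705 CPM in E, without overlap. By mean log2 CPM the epiblast markers were higher in every E library than in any ExE library. By summed CPM they were not, since ExE hom 3 (2517 CPM) was above E wt 1 (2372 CPM).

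**Figure D2:**
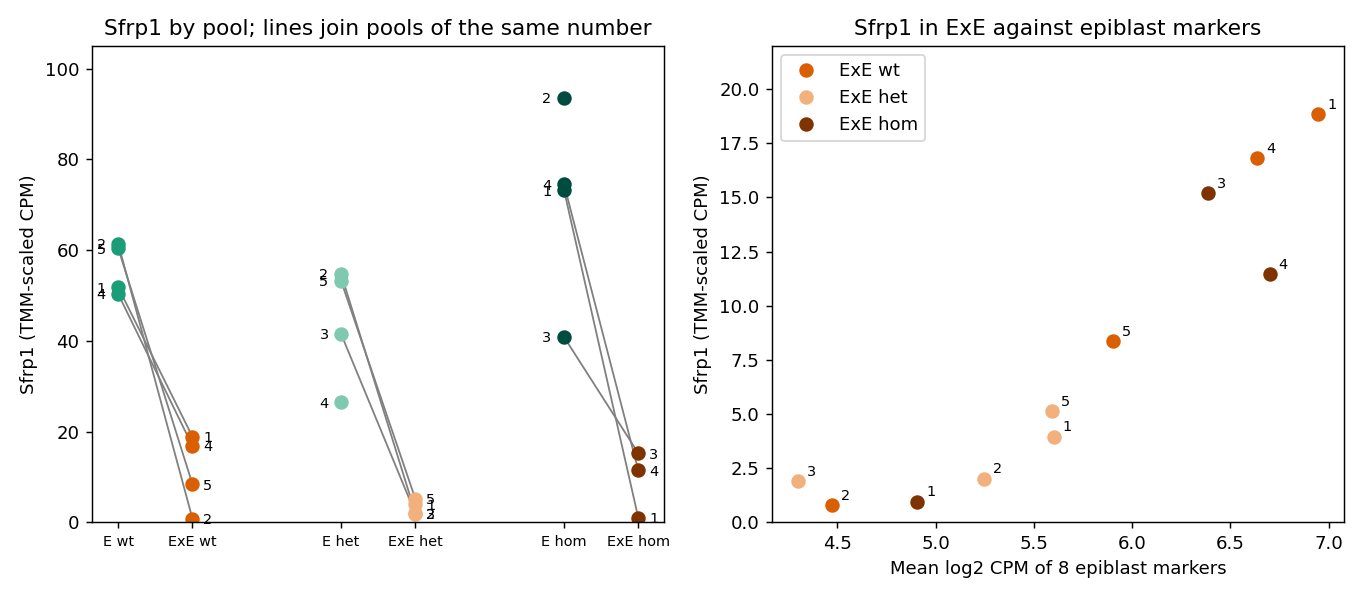
Left, Sfrp1 in TMM-scaled CPM (y axis) in E and ExE libraries of each genotype (x axis), with lines joining libraries of the same pool number; it was higher in E in 10 of 10 pairs. Right, Sfrp1 (y axis) against the mean log2 CPM of 8 epiblast markers (x axis) in the 11 ExE libraries, where the 4 libraries of highest marker mean have the 4 highest Sfrp1 values, 11.4 to 18.8 CPM.

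The other 5 genes were low and came and went between pools of the same genotype. Per length, in RPKM (CPM per kilobase of exon), the E wt mean level was 12.8 for Sfrp1, 1.19 for Lhx1, 1.06 for Dkk1, 1.02 for Sfrp5, 0.708 for Cer1 and 0.132 for Hhex. In E hom the mean RPKM was 16.1 for Sfrp1, 4.82 for Cer1, 2.70 for Dkk1, 1.88 for Sfrp5, 1.73 for Lhx1 and 0.299 for Hhex. For each of these 5 genes the ranges of every pair of neighbours in the order of the 6 group means overlapped.

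Cer1, the Nodal antagonist, had 1.71, 0, 2.03 and 1.18 CPM in E wt 1, 2, 4 and 5. It was at 0 reads in all 4 E het pools. In E hom 1, 2, 3 and 4 it had 9.98, 23.5, 0 and 0 CPM. The 2 high E hom pools lay above every wt pool and the other 2 below most of them. In ExE, Cer1 had 5.52, 0, 0 and 2.30 CPM in wt 1, 2, 4 and 5, and 0, 0, 1.68 and 0.427 CPM in het 1, 2, 3 and 5. It was at 0 in the 3 ExE hom pools.

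Dkk1, the LRP5 and LRP6 antagonist, had 3.29, 0.881, 5.97 and 0.148 CPM in E wt 1, 2, 4 and 5. It had 0.106, 0, 0 and 0 CPM in E het 2, 3, 4 and 5, and 15.6, 10.6, 0 and 0 CPM in E hom 1, 2, 3 and 4. E het lay below E wt with no overlap, by the margin of 1 read in E wt 5 against 1 in E het 2, and E hom spanned both. In ExE, Dkk1 had 7.32, 0.332, 3.81 and 0.540 CPM in wt 1, 2, 4 and 5, then 0, 0, 0 and 0.427 CPM in het 1, 2, 3 and 5 and 0, 0 and 0.629 CPM in hom 1, 3 and 4. The 2 highest ExE wt pools were numbers 1 and 4, as in E wt.

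Sfrp5, the second frizzled-related inhibitor, had 4.34, 0.881, 1.49 and 1.03 CPM in E wt 1, 2, 4 and 5. It had 0.532, 1.38, 1.92 and 0.525 CPM in E het 2, 3, 4 and 5, and 6.50, 7.81, 0 and 0 CPM in E hom 1, 2, 3 and 4. The same E hom pools, 1 and 2, were the high ones as for Cer1 and Dkk1, and all 3 genotypes overlapped. In ExE it had 0.720, 0, 1.31 and 0 CPM in wt 1, 2, 4 and 5, then 0, 0, 0 and 1.17 CPM in het 1, 2, 3 and 5 and 0.135, 10.9 and 2.77 CPM in hom 1, 3 and 4. The highest Sfrp5 value of the series, ExE hom 3, came from a library that stood apart.

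Of the transcription factors, Lhx1 had 8.29, 0, 9.63 and 1.48 CPM in E wt 1, 2, 4 and 5. It had 0.213, 0, 0 and 2.50 CPM in E het 2, 3, 4 and 5, and 11.7, 15.7, 0 and 0.846 CPM in E hom 1, 2, 3 and 4. The genotypes overlapped, since E wt and E hom each had a pool at 0. In ExE, Lhx1 had 1.08, 0, 1.67 and 2.70 CPM in wt 1, 2, 4 and 5, then 0, 0, 0 and 0.107 CPM in het 1, 2, 3 and 5 and 0, 1.36 and 1.26 CPM in hom 1, 3 and 4. Hhex, the scarcest member, had 1.32, 1.21, 0.136 and 0 CPM in E wt 1, 2, 4 and 5. It had 1.49, 0, 0.174 and 0 CPM in E het 2, 3, 4 and 5, and 1.79, 3.75, 0 and 0.508 CPM in E hom 1, 2, 3 and 4. In ExE, Hhex had a count in 4 of the 11 libraries, with 2.64 CPM in wt 1, 0.135 in wt 5, 0.533 in het 5 and 1.13 in hom 3. Among the epiblast libraries, E hom 1 and 2 were again the highest for both factors, and the genotypes overlapped in the epiblast.

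In the epiblast, the pools with the most RNA of the 5 scarce genes were those with the most visceral endoderm RNA. Their summed level was 18.9, 2.97, 19.3 and 3.84 CPM in E wt 1, 2, 4 and 5, then 2.34, 1.38, 2.09 and 3.02 CPM in E het 2, 3, 4 and 5 and 45.5, 61.4, 0 and 1.35 CPM in E hom 1, 2, 3 and 4. Over 20 visceral endoderm markers such as Afp, Ttr, Amn and Cubn, the mean log2 CPM in the same order was 5.34, 1.09, 2.56 and 0.57 in E wt, 0.40, 0.0027, 0.62 and -0.13 in E het, and 3.80, 3.71, 1.02 and 1.40 in E hom. E wt 1, E hom 1, E hom 2 and E wt 4 were the 4 highest epiblast libraries for both. Below them the levels did not follow the markers: E hom 3 and E hom 4 had higher marker means than every E het pool, yet lower levels of the 5 genes than E het 2, 3, 4 and 5. In ExE the marker mean was 3.89, -0.60, 1.05 and -0.12 in wt 1, 2, 4 and 5, and the 5 genes summed to 17.3, 0.332, 6.79 and 5.67 CPM. The mean was 0.28, 0.80, 0.14 and 0.92 in het 1, 2, 3 and 5 with 0, 0, 1.68 and 2.67 CPM of the 5 genes, and -0.31, 1.51 and 0.64 in hom 1, 3 and 4 with 0.135, 13.4 and 4.65 CPM. ExE wt 1 and ExE hom 3 were highest for both, and ExE wt 5 had more of the 5 genes than pools of higher marker mean. The summed level of the 20 markers was 119 to 1250 CPM in E wt, 113 to 145 in E het, 137 to 635 in E hom, 94.6 to 517 in ExE wt, 119 to 166 in ExE het and 102 to 388 in ExE hom, with 15 to 20, 12 to 15, 17 to 20, 10 to 20, 12 to 19 and 12 to 15 of the 20 having a count. The 6 defining markers Afp, Ttr, Apob, Amn, Cubn and Hnf4a summed to 16.4 to 319 CPM in E wt, 2.65 to 11.1 in E het and 11.3 to 129 in E hom. Afp and Hnf4a were at 0 in all 4 E het pools. The part of visceral endoderm content in the levels of the 5 genes was not tested beyond the fit with it as a covariate, given below. In pooled tissue, fewer visceral endoderm cells and less of a transcript per cell cannot be told apart.

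The 5 genes did not keep a fixed ratio to those markers, and the order of the ratios depended on the markers chosen. Their summed CPM as a percentage of the summed CPM of all 20 was 1.52%, 2.21%, 8.14% and 3.22% in E wt 1, 2, 4 and 5, and 1.70%, 1.13%, 1.44% and 2.68% in E het 2, 3, 4 and 5. It was 9.69%, 9.68%, 0% and 0.70% in E hom 1, 2, 3 and 4. By this sum E hom 1 and 2 had the highest ratios of all 23 libraries, and E wt 1, with the most marker RNA, had a low one. Much of the sum was Lrp2 in E het (85.3 ± 17.2 CPM, SD, n = 4) and Cited1 in ExE het (100.2 ± 19.3 CPM, SD, n = 4). In ExE it was 3.34%, 0.299%, 5.08% and 5.99% in wt 1, 2, 4 and 5, 0%, 0%, 1.23% and 1.61% in het 1, 2, 3 and 5, and 0.133%, 3.45% and 4.13% in hom 1, 3 and 4. As a percentage of the 6 defining markers it was 5.95%, 18.1%, 50.7% and 20.5% in E wt 1, 2, 4 and 5, 71.0%, 52.2%, 18.8% and 95.8% in E het 2, 3, 4 and 5, and 38.4%, 47.7%, 0% and 8.25% in E hom 1, 2, 3 and 4. By that measure E het 2, E het 3, E het 5 and E wt 4 were above both E hom 1 and E hom 2, with E het 2, 3 and 5 resting on 2.65 to 3.30 CPM of defining markers. By either measure the genotypes overlapped in the epiblast.

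**Figure D3:**
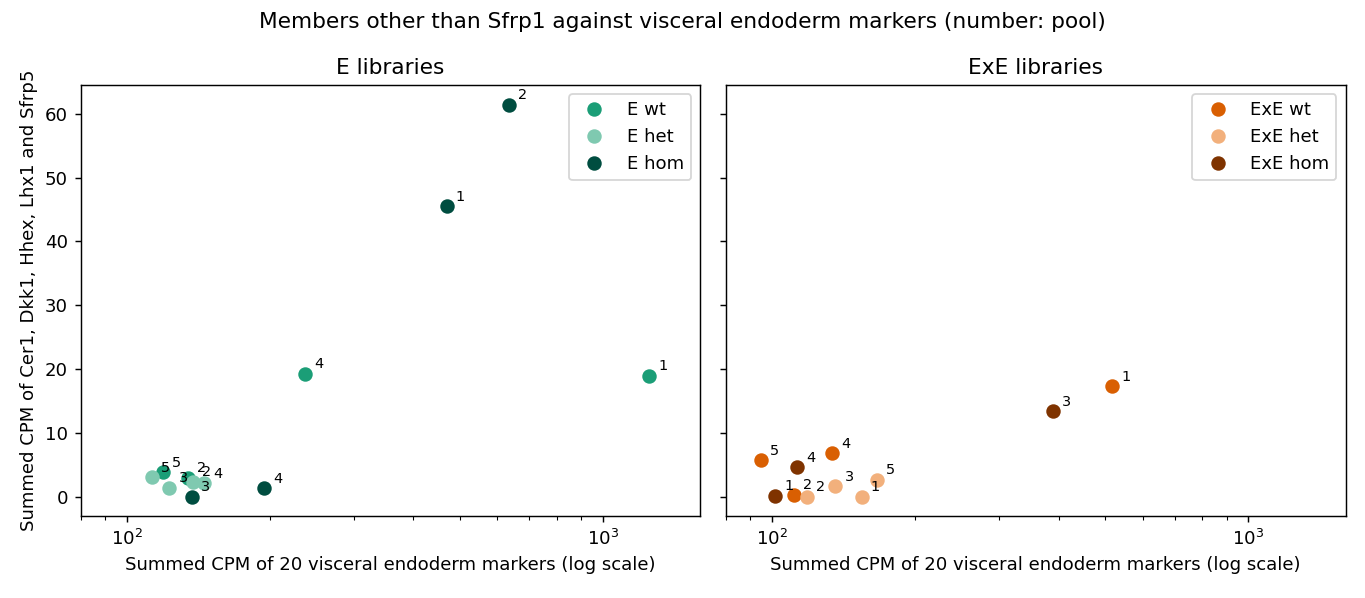
Summed CPM of Cer1, Dkk1, Hhex, Lhx1 and Sfrp5 (y axis) against the summed CPM of 20 visceral endoderm markers (x axis, log scale) in E (left) and ExE (right) libraries, labelled by pool number. E hom 1 and 2 (45.5 and 61.4 CPM) lie above E wt 1 (18.9 CPM), which has the highest marker sum, 1250 CPM.

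No member was called between genotypes in the epiblast. In E hom against E wt all 6 passed the filter on low counts and all 6 had a higher fitted level, with a median log2 fold change of 1.05 against 0.0078 over all 12405 genes; 0 of 6 were called by edgeR and 0 by DESeq2, and 0 had an unadjusted p under 0.05. Of all genes, 0.0161% were called and 4.19% had an unadjusted p under 0.05. The log2 fold changes were 2.78 ± 1.56 for Cer1, 1.37 ± 1.32 for Dkk1, 0.34 ± 0.27 for Sfrp1, 0.91 ± 1.20 for Sfrp5, 1.19 ± 1.42 for Hhex and 0.57 ± 1.42 for Lhx1 (adjusted p from edgeR 0.961 to 0.964). The standard errors of the 5 scarce genes exceed 1 log2 unit; for each of them 2 hom pools were high and 2 were below 1 CPM. Of the 19 visceral endoderm markers tested, 13 had a lower fitted level and 6 a higher one, with a median of -0.49 and 0 called. Other measures of these markers were not lower in E hom. Their mean log2 CPM was 2.48 ± 1.47 in E hom and 2.39 ± 2.14 in E wt (SD, n = 4 each). Their median summed level was 332 CPM in E hom and 185 CPM in E wt, where pool 1 had 1250 CPM and pools 2, 4 and 5 had 134, 237 and 119 CPM. With the marker mean as a covariate, Dkk1 was at -0.66, Lhx1 at -0.25 and Sfrp5 at -0.18, while Cer1 was at 1.25, Hhex at 0.61 and Sfrp1 at 0.33.

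In E het against E wt all 6 had a lower fitted level, with a median log2 fold change of -1.82 against -0.00056 over all genes. By edgeR 0 of 6 were called (0% of all genes) and by DESeq2 0; 2 of 6, Cer1 and Dkk1, had an unadjusted p under 0.05, as did 2.40% of all genes. Dkk1 differed by -5.77 ± 1.92 (edgeR adjusted p = 0.982, unadjusted p = 0.00922), from 78 reads over the 4 E wt pools against 1 over the 4 E het pools. That ratio is 79.5 after scaling, with an exact 95% counting interval of 13.9 to 3180 that leaves out the spread between pools. Dkk1 was the 1 of 6 members whose E het and E wt pools did not overlap, as for 1.53% of all genes in this direction. Cer1 was at least 2.36-fold lower in E het by group mean, against the limit of 3 reads per library, with an unadjusted p of 0.0298. That bound leaves out the spread between pools, since E wt 2 also had 0 reads of Cer1. The other 4 were at -2.80 ± 1.59 (Lhx1), -0.83 ± 1.23 (Sfrp5), -0.62 ± 1.47 (Hhex) and -0.34 ± 0.27 (Sfrp1). The visceral endoderm markers were lower in the same comparison, 18 of 19 tested with a median of -3.73 and 0 called. With their mean as a covariate, Dkk1 was at -2.17, Sfrp1 at -0.29, Hhex at 0.79, Lhx1 at 0.20 and Sfrp5 at 1.42.

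Between the trap genotypes, E hom against E het, all 6 had a higher fitted level; 0 of 6 were called by edgeR (adjusted p = 1.00; 0% of all genes) and 0 by DESeq2, and 3 of 6 had an unadjusted p under 0.05, as did 2.48% of all genes. These 3 were Cer1, at least 16.0-fold higher in E hom by group mean, Dkk1 at 7.14 ± 1.94 and Sfrp1 at 0.69 ± 0.27. The bound for Cer1 uses the 3-read limit and leaves out the spread between pools, since only 2 of the 4 E hom pools had a count. Lhx1 was at 3.37 ± 1.61, Hhex at 1.81 ± 1.46 and Sfrp5 at 1.74 ± 1.24. The visceral endoderm markers were higher too, 18 of 19 tested with a median of 3.01, and the 6 defining ones all were, with a median of 6.14; 0 were called. With their mean as a covariate, Dkk1 was at 1.51, Sfrp1 at 0.63, Hhex at -0.18, Lhx1 at -0.45 and Sfrp5 at -1.60. The 3 comparisons share pools, so they are not separate evidence of a direction. Sfrp1 had the most precise estimates of the 6, and its genotype differences of 0.34, -0.34 and 0.69 were each under 1 log2 unit.

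**Figure D4:**
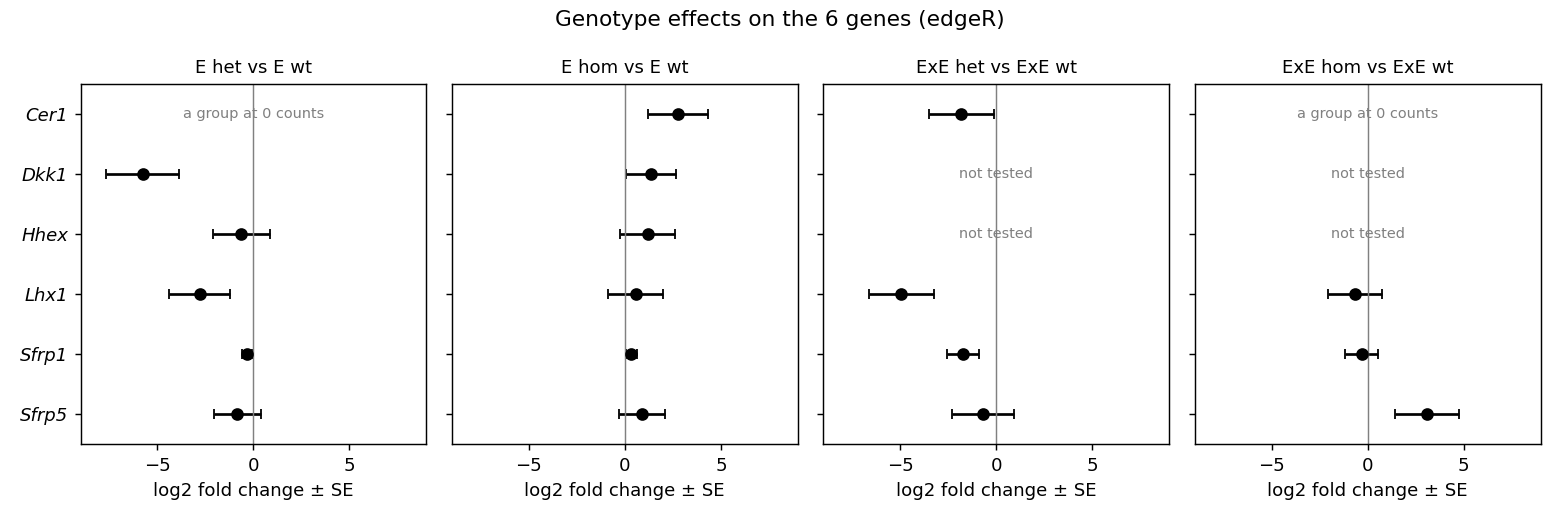
Log2 fold change ± SE from edgeR (x axis) of the 6 genes (y axis) for het and hom against wt within E and within ExE, with a line at 0 and no point where a group had 0 counts or the gene was not tested. The E hom estimates lie above 0 and the E het estimates below it, but none was called, and every SE drawn for Cer1, Dkk1, Hhex, Lhx1 and Sfrp5 exceeds 1 while that of Sfrp1 in E is 0.27.

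In extra-embryonic tissue 4 of the 6 genes passed the filter, and Dkk1 and Hhex did not. In ExE hom against ExE wt, 0 of 4 were called by edgeR (0% of 12355 genes), and Sfrp1, the 1 member to which DESeq2 gave an adjusted p, was not called by it; 1 of 4, Cer1, had an unadjusted p under 0.05, as did 7.57% of all genes. Cer1 was at least 2.87-fold lower by group mean (edgeR adjusted p = 0.604), a bound that leaves out the spread between pools, since only 2 of the 4 ExE wt pools had a count. Sfrp5 was at 3.09 ± 1.69 (adjusted p = 0.713), Lhx1 at -0.66 ± 1.43 and Sfrp1 at -0.31 ± 0.87. Without ExE hom 1 the Sfrp1 value was 0.22, and without ExE wt 1 it was 0.070. Without the 3 libraries that stood apart Sfrp5 was at 1.49. Maternal decidua markers ranged widely in this group, 18.9 to 224 CPM summed over 9 genes in ExE hom against 2.21 to 15.8 in ExE wt and 3.84 to 23.1 in ExE het, and their part in the Sfrp5 level was not tested.

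In ExE het against ExE wt, 0 of 4 were called by edgeR (0% of all genes) and 0 by DESeq2, and all 4 had a lower fitted level. Lhx1 was at -4.94 ± 1.68 (unadjusted p = 0.0106), the 1 of 4 with an unadjusted p under 0.05, as had 4.13% of all genes. It had 43 reads over the ExE wt pools and 1 over the ExE het pools, a scaled ratio of 44.6 with an exact 95% counting interval of 7.59 to 1802. Cer1 was at -1.82 ± 1.69, Sfrp1 at -1.75 ± 0.83 and Sfrp5 at -0.71 ± 1.62. Without ExE het 5, the 1 ExE het pool with reads of Sfrp5, its value was -5.01. Fitted without the filter, Dkk1 had an adjusted p of 0.829 by edgeR (unadjusted 0.00926) and Hhex one of 0.966. The 8 epiblast markers were lower too, 8 of 8 with a median of -1.24 and 0 called, and 12 of 14 visceral endoderm markers were lower with a median of -1.72 and 0 called; their part was not tested. In ExE hom against ExE het, 0 of 4 were called by edgeR (0% of all genes; adjusted p 0.743 to 0.864) and 0 by DESeq2, which gave Lhx1 no adjusted p, and 2 of 4 had an unadjusted p under 0.05, as did 6.48% of all genes. Lhx1 was at 4.28 ± 1.73, Sfrp5 at 3.80 ± 1.74 and Sfrp1 at 1.44 ± 0.87. Cer1 was lower, at 0 in ExE hom, and is given no fold because its ExE het mean of 0.526 CPM is also under the 3-read limit. The epiblast markers were higher, 7 of 8 with a median of 1.28 and 0 called; their part was not tested.

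Unlike Sfrp1, the 5 scarce genes were not called between the tissues. In wt, Cer1 was at 0.66 ± 1.72, Dkk1 at 0.22 ± 1.38, Hhex at 0.05 ± 1.72, Lhx1 at -1.83 ± 1.48 and Sfrp5 at -1.90 ± 1.53 in ExE against E. In het, Lhx1 was at -3.96 ± 2.02, Sfrp5 at -1.79 ± 1.57, Hhex at -1.53 ± 1.84 and Dkk1 at 1.45 ± 2.05, and Cer1 is given no fold because its levels in both tissues were about that of the 3-read limit or below. In hom, Cer1 was at least 12.3-fold lower in ExE by group mean (edgeR adjusted p = 0.0619). That bound leaves out the spread between pools, since only 2 of the 4 E hom pools had a count. Dkk1 was at -4.74 ± 1.90 (adjusted p = 0.0911), Lhx1 at -3.02 ± 1.76, Hhex at -2.12 ± 2.04 and Sfrp5 at 0.34 ± 1.54. Without E hom 3, 1 of the libraries that stood apart, Cer1 (adjusted p = 0.0373) and Dkk1 (-5.14, adjusted p = 0.0479) were called lower in ExE hom by edgeR, and with DESeq2 Dkk1 was (-4.94, adjusted p = 0.0425). More of all genes were called there too, counting both directions. Without E hom 3 these were 2736 of 13550 genes, and with DESeq2 2974 of 18053, of which 4149 had no adjusted p. The main run called 2281 of 13595. The test of whether the hom effect differed between the tissues gave Cer1 an unadjusted p of 0.0156 and Dkk1 -4.97 ± 2.29 (unadjusted p = 0.0407), as had 3.06% of all genes, and 0 of 6 were called by edgeR (0% of all genes) and by DESeq2. The other 4 were at -2.16 ± 2.64 (Hhex), -1.20 ± 2.18 (Lhx1), -0.63 ± 0.90 (Sfrp1) and 2.23 ± 2.15 (Sfrp5). For the het effect 0 of 6 were called by either tool (0% of all genes) and 0 had an unadjusted p under 0.05, as had 5.27% of all genes. There Dkk1 was at 1.23 ± 2.27, Hhex at -1.57 ± 2.47, Lhx1 at -2.14 ± 2.28, Sfrp1 at -1.42 ± 0.87 and Sfrp5 at 0.10 ± 2.72, and Cer1, at 0 in E het, is given no value.

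Other genes of the anterior visceral endoderm behaved in several ways. Of Lefty1, Otx2, Foxa2, Gsc, Hesx1 and Amot, most of which the epiblast or streak also expresses, 5 passed the filter in E: 2 were higher and 3 lower in E hom (median -0.039), and 2 were higher and 3 lower in E het (median -0.11), with 0 called in either. Amot, which encodes angiomotin, had 47.9, 29.8, 42.3 and 26.4 CPM in E wt 1, 2, 4 and 5. It had 12.7, 24.1, 13.1 and 17.6 CPM in E het 2, 3, 4 and 5, and 75.3, 88.6, 11.2 and 37.4 CPM in E hom 1, 2, 3 and 4. E het lay below E wt with no overlap, as for 1.53% of all genes in this direction, and was not called (-1.11 ± 0.47, edgeR adjusted p = 0.982). E hom 1 and 2 were the highest, as for the 5 scarce members. Between tissues, 5 of the 6 were lower in ExE wt and 2 were called, namely the homeobox genes Otx2 (-2.55 ± 0.61, edgeR adjusted p = 0.00640) and Gsc (-3.40 ± 1.08, edgeR adjusted p = 0.0323). All 6 were lower in het and in hom, with 3 called in each. Of all genes, 7.99% were called lower in ExE in wt, 14.9% in het and 7.66% in hom.

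The receptors and ligands on which the inhibitors act were also followed, 18 genes of which all were tested in E and 16 in ExE. In E, 8 were higher and 10 lower in hom (median -0.14), and 5 higher and 13 lower in het (median -0.16), with 0 called in either. In ExE, 15 of 16 were lower in hom (median -0.60) and 14 of 16 in het (median -0.71), with 0 called. Between tissues in wt, 5 of the 18 were higher in ExE and 13 lower. The 3 called higher were Bmp4, a ligand bound by Cer1 (3.68 ± 0.79), Kremen1, a Dkk1 co-receptor (1.30 ± 0.31), and the WNT receptor Fzd1 (2.03 ± 0.48). Called lower were 2, among them the WNT receptor Fzd7 (-1.44 ± 0.31). Of all 13595 genes, 2348 were called in this comparison. Nodal, which Cer1 blocks, was at -0.34 ± 0.32 in E hom and -0.29 ± 0.32 in E het against E wt, and not called.

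Of 20 other secreted inhibitors of WNT, Nodal or BMP, 9 were tested in E, with 4 higher and 5 lower in both hom (median -0.28) and het (median -0.23) and 0 called. The one of smallest p in E hom was Lefty2, a Nodal inhibitor, at -1.97 ± 0.43 (edgeR adjusted p = 0.488). Between tissues in wt, 12 were tested, with 3 higher in ExE and 9 lower. Apcdd1, a WNT inhibitor, was called higher (2.32 ± 0.55). Lefty2 (-2.92 ± 0.82) and the activin inhibitor Fst (-2.64 ± 0.77) were called lower, as Sfrp1 was and as were 7.99% of all genes. Of 10 genes that WNT signals induce, 9 were tested in E: 6 were lower in hom (median -0.089) and 8 lower in het (median -0.14), with 0 called. Those of smallest p in E hom included Nkd1 (-1.44 ± 0.45) and Sp5 (-1.91 ± 0.76), neither of them called (edgeR adjusted p = 0.961).

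Across the 12 epiblast libraries the members resembled each other in part. The Pearson correlation of log2 CPM was 0.90 for Cer1 with Dkk1, 0.86 for Cer1 with Lhx1 and 0.82 for Dkk1 with Lhx1, and 0.23 for Sfrp1 with Sfrp5. These are descriptions, and many values sit at 0. With the mean of the 20 visceral endoderm markers, Dkk1 correlated at 0.85, Cer1 at 0.77 and Lhx1 at 0.76. Sfrp5 was at 0.67, Hhex at 0.65 and Sfrp1 at 0.42. The part of visceral endoderm content in the likeness of the members was not tested. Among 11170 genes tested in E whose mean log2 CPM reached 1 (11169 for Sfrp1, itself one of them), the ones most like Cer1 were Spink3 (0.86) and Amot (0.85), and those most like Dkk1 were Hadh (0.87), Atmin (0.87) and Amot (0.86). Lhx1 was most like Zfp454 (0.90), Hhex like Zfp456 (0.90) and Sfrp5 like Dnajc22 (0.86). Helb (0.92) and Zfp961 (0.92) were among the 5 genes most like Sfrp1, and neither was among the 5 most like any other member.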

How the data were processed

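Counts of reads per gene in 23 RNA-seq libraries were used as deposited by the authors, as raw whole-number counts. Per the labels' protocols, polyA RNA was amplified with a SMARTer kit and read as single ends; per the submitters' processing notes, TopHat2 2.0.12, cutadapt 1.7.1, FastX 0.0.13, ShortRead 1.16.3 and build mm10 were used. No source used here gives the counting program, its annotation or its use of strand. The reads were amplified and carry no molecular identifiers, so intervals cover counting error only.

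Computed here: edgeR 4.0.16 (R 4.3.3) quasi-likelihood tests with TMM scaling, genes kept by filterByExpr (minimum count 10, minimum total 15), Benjamini-Hochberg adjustment over all genes, 0.05 as threshold, and a prior count of 0.125 for fold changes and 2 for log2 CPM. Genotypes were fitted within each tissue, and tissues over all 23 libraries. RPKM used exon lengths of GENCODE M21. Pools are biological replicates per the labels, and p-values measure the spread between pools. Same-numbered E and ExE pools are paired by litter for most numbers per the labels; the deviations of the 10 pairs correlated at -0.041 to 0.460. No 2 libraries of a group agreed within counting noise. The method was tested on simulated data without the filter. The genes changed in it were all more abundant in E than the scarce members, so that test does not cover them.

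The members and gene lists were chosen with earlier results of these data known. All 6 members were to be named in every comparison in which they were tested. Of each list, up to 4 genes of smallest p in a comparison are named, and of the genes most like a member the 5 of highest correlation could be named; some are not reported here. Amot's values by library, and Nodal, were chosen after their values were seen. Alternatives were DESeq2 1.42.0, its size factors in edgeR, no filter, each library left out, the 3 libraries apart left out, the pool number as a block, other sets of samples in the fit and a visceral endoderm covariate.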

Additional observations from a re-analysis of the deposited data

Results flagged for a closer look

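In each group of 4 pools with a count, the highest and the lowest pool of each member were compared with the others by Dixon's test at the 95% level. Of 29 groups tested, 8 held a pool far from the other 3, all of them high; chance flags about 1 in 20 groups, and in groups with most pools at 0 any pool with a read stands out.

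Hhex was high in E het 2, at 1.49 CPM with the next pool at 0.174, and in ExE wt 1, at 2.64 CPM with the next at 0.135. ExE wt 1 also had the highest visceral endoderm marker mean of the ExE libraries. Lhx1 was high in E het 5, at 2.50 CPM with the next pool at 0.213. Dkk1 in E het 2 stood at 0.106 CPM, which is 1 read.

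ExE het 5 was the high pool for 4 members, while the other 3 pools were at 0. Dkk1 had 0.427 CPM there, Hhex 0.533 CPM, Lhx1 0.107 CPM and Sfrp5 1.17 CPM, or 4, 5, 1 and 11 reads.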

How the results depend on the processing

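Over the 60 fold changes of members in the 11 comparisons, 1383 alternative values were computed: 1336 kept their direction and their side of the threshold, 3 passed the threshold where the reported value had not, and 44 changed sign, none of them a called value. The 3 Sfrp1 differences between tissues stayed called in every alternative run, with adjusted p of 0.00112 to 0.0441 in wt, 1.85e-08 to 0.00284 in het and 0.000124 to 0.0332 in hom. The number of members called in ExE hom against E hom was 2 with DESeq2 (Dkk1 at -4.94), and 1 to 3 with each library left out in turn (3 without E hom 3, Cer1 at -9.47 fitted against a group at 0 and Dkk1 at -5.14). Of all genes, 2974 of 18053 were called with DESeq2 and 2736 of 13550 without E hom 3, against 2281 of 13595 in the main run.

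With the visceral endoderm covariate the sign changed for Dkk1 (-0.66), Lhx1 (-0.25) and Sfrp5 (-0.18) in E hom against wt, Hhex (0.79), Lhx1 (0.20) and Sfrp5 (1.42) in E het against wt, Hhex (-0.18), Lhx1 (-0.45) and Sfrp5 (-1.60) in E hom against het, and Sfrp5 (0.016) in ExE het against wt. With the replicate block it changed for Hhex (0.083) and Sfrp5 (0.33) in E het against wt, Sfrp5 (-0.076) in E hom against het, Cer1 (-0.094) and Hhex (-0.88) in ExE wt against E wt, and in the tissue difference of the hom effect for Lhx1 (1.33) and of the het effect for Hhex (0.25). Between genotypes the pools share only a number (16 pairs, correlations of -0.355 to 0.198), and the block changed no call of a member. Without the 3 libraries that stood apart, Sfrp5 in ExE hom against E hom was at -1.72. The cause of these changes was not tested.

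Leaving out 1 library at a time spanned 0 for Lhx1 in E hom against wt (-0.20 to 1.14), Sfrp1 in ExE hom against wt (-0.85 to 0.22), Cer1 (-0.69 to 1.08), Dkk1 (-0.71 to 1.05) and Hhex (-3.57 to 0.58) in ExE wt against E wt, Dkk1 (-1.54 to 2.99) and Hhex (-4.78 to 1.22) in ExE het against E het, and Sfrp5 in ExE hom against E hom (-1.29 to 1.05). It did so in the tissue difference of the hom effect for Hhex (-6.68 to 1.45), and of the het effect for Dkk1 (-1.76 to 2.77), Hhex (-4.83 to 2.04), Lhx1 (-3.60 to 0.72) and Sfrp5 (-4.19 to 1.13). Ranges that kept their sign were wide as well, as for Sfrp5 in ExE het against wt (-5.01 to -0.32). The 5 scarce genes had 0 to 226 reads per library, and a count of 0 allows a level of up to 0.312 to 0.681 CPM.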
